A study of Mus musculus with 2 samples.

Results

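The genes followed here are Ccl2, Ccl7, Ccl12, Ccl8, Ccl3, Ccl4 and Ccl5 among the CC chemokines (C-C motif ligands) and Ccr1 and Ccr2 among their receptors. They were taken by gene symbol and make up 9 of the 19070 genes listed in each library. UMIs (unique molecular identifiers, each counting 1 captured molecule) of these genes were summed in each library and in each cell class, and the classes were set by the UMIs of marker genes that include none of the 9. The libraries are single cells of tumours that the mouse lung cancer line LLC (Lewis lung carcinoma) formed under the skin of mice. One library, called anti-PD-1, comes from tumours of mice given an antibody to PD-1, a receptor that restrains T cells, and its cells were collected at day 7 after treatment. The other, called control, comes from tumours of mice given an IgG2a isotype antibody, with no collection day in the labels, although the text of the series calls its cells untreated. Each group has 1 library, and the mouse strain, the age and the number of mice are not given in the sources used here, so every difference is between 2 libraries, carries no p-value, and cannot be told apart from differences between animals, preparations or collection times. Intervals are 95% and cover counting error alone.

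CC chemokines are small secreted proteins that draw leukocytes along a gradient by binding G protein-coupled receptors on their surface. In mice, Ccl2, Ccl7 and Ccl12 act through Ccr2 and bring monocytes from marrow and blood into inflamed tissue and tumours, where many become macrophages. Ccl3, Ccl5 and Ccl7 act through Ccr1, while mouse Ccl8 acts through Ccr8.

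All 9 genes are protein-coding and lie in 3 groups on the mm10 build. Ccl2, Ccl7, Ccl12 and Ccl8 stand in this order on the plus strand of chromosome 11, from base 82035571 to base 82116799, a span of 81229 bases. Ccl5, Ccl3 and Ccl4 lie 1408979 bases further along the same chromosome, from base 83525778 to base 83664683, with Ccl5 and Ccl3 on the minus strand and Ccl4 on the plus strand. Ccr1 (123962124 to 123968692, minus strand) and Ccr2 (124101950 to 124113557, plus strand) are close together on chromosome 9. RefSeq promoter sequences of build GRCm38.p6 were at hand for 5 of the 9, namely Ccl12, Ccl8, Ccl3, Ccr1 and Ccr2. Their windows follow RefSeq starts, which can differ from the gene positions above. The Ccr2 window (chr9:124101933-124102182) runs past the start of 124101950 given above, so most of it lies within that gene span. The Ccl3 window begins at 83649379, while the gene span ends at 83649355. The 250 bases before the start of Ccl12 (chr11:82101595-82101844, plus strand), Ccl8 (chr11:82114935-82115184, plus strand) and Ccl3 (chr11:83649379-83649628, minus strand) are shown because these neighbours on 1 chromosome differed in how their levels compared between the libraries. Each is written 5′ to 3′ on the gene's own strand, with capitals marking TATAAAA, the letters of a TATA box.
Ccl12: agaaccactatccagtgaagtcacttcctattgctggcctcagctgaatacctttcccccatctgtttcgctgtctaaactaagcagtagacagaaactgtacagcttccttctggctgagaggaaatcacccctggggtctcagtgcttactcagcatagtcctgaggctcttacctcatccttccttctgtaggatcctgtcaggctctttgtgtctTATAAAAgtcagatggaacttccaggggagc
Ccl8: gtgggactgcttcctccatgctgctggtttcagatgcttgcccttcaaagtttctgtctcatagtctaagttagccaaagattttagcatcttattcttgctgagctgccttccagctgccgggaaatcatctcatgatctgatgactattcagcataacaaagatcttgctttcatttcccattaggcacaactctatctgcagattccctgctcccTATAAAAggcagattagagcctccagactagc
Ccl3: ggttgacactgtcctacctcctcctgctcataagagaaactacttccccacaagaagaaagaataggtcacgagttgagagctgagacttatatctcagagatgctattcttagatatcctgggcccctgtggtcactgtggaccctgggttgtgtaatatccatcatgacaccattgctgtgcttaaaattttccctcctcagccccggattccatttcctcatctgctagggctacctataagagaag
The TATA letters stood 31 bases before the start of Ccl12 and 32 bases before that of Ccl8, and were absent from the other 3 windows. They were found in 4.98% of 32851 mouse promoter windows of the same length, read on both strands. Aligned end to end, the Ccl12 and Ccl8 windows had the same base in 55.6% of alignment columns, against 50.4% for Ccl8 and Ccl3 and 43.7% for Ccl12 and Ccl3. The NF-kB letters (GGGA and TTCC with 2 bases of any kind between), the interferon-stimulated response element (GAAA and GAAA with 2 bases of any kind between), the gamma-activated sequence TTCNNNGAA, the C/EBP letters TTGCNNAA and the AP-1 letters TGANTCA were in none of the 5 windows, and in 1.21%, 2.98%, 7.02%, 9.56% and 6.75% of all windows in that order. That says only that these exact letters are not there.

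The anti-PD-1 library gave 9422 cells with a median of 8744 UMIs and 115405551 UMIs in all, and the control library 8395 cells with a median of 7473 UMIs and 113219015 UMIs in all. Of the named classes, 8 held at least 50 cells in both libraries. Macrophage-like cells numbered 607 in anti-PD-1 and 442 in control, and monocyte-like cells 1026 in anti-PD-1 and 781 in control. LLC-like tumour cells, named by Hmga2, Igf2bp1, Igf2bp2 and Wnt7b, numbered 5008 in anti-PD-1 and 3282 in control. Clusters that met no naming rule held 20.5% of anti-PD-1 and 33.7% of control barcodes. In addition, 107 barcode sequences occurred in both libraries. Globin and other erythroid marker UMIs had a lower level in anti-PD-1 inside each of the 8 classes, for example 76.7 CPM in anti-PD-1 macrophage-like cells against 811 in those of control, and 70.8 against 1305 in monocyte-like cells. Whether this has a part in the results was not tested. Levels are given as UMIs per 1000000 UMIs of the class (CPM), and are not ranked between genes, whose lengths and capture can differ.

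The 4 neighbours on chromosome 11 had their highest levels in macrophage-like cells, with monocyte-like cells next. Ccl2, the main attractant of Ccr2-bearing monocytes, stood at 2914 CPM in macrophage-like and 1758 CPM in monocyte-like cells of anti-PD-1, and at 1522 and 1303 CPM in those of control. Ccl7, a second Ccr2 ligand, followed the same order, with 3588 and 1661 CPM in anti-PD-1 and 1913 and 1172 CPM in control. Ccl12, which has no direct human counterpart, reached 1358 and 810 CPM in anti-PD-1 and 702 and 496 CPM in control. In both libraries the interval of the macrophage-like cells lay above that of the monocyte-like cells for each of these genes.

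Among the named classes, Ccl8 was the ligand of the group most restricted to macrophage-like cells. Its level was 1657 CPM in anti-PD-1 macrophage-like cells and 1353 CPM in those of control, which was 10.5-fold and 7.85-fold above the monocyte-like level. Macrophage-like cells held 52.6% of all Ccl8 UMIs of the anti-PD-1 library and 34.5% of those of control, while unnamed cells held 21.3% in anti-PD-1 and 40.7% in control. Apart from macrophage-like and monocyte-like cells, every class stood at 86.7 CPM or less in anti-PD-1 and at 80.3 CPM or less in control. Ccl8 thus separated macrophage-like from monocyte-like cells more than Ccl2, Ccl7 or Ccl12 did. The macrophage-like class was the cluster led by Lyve1, Gas6 and C1qc. An unnamed finer cluster led by Mmp12 and Hspa1a had a mean log2 fold of 2.34 for macrophage markers. Its Ccl8 was 252 CPM in anti-PD-1 and 317 CPM in control, so the restriction does not cover every cell group with macrophage markers.

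**Figure D1:**
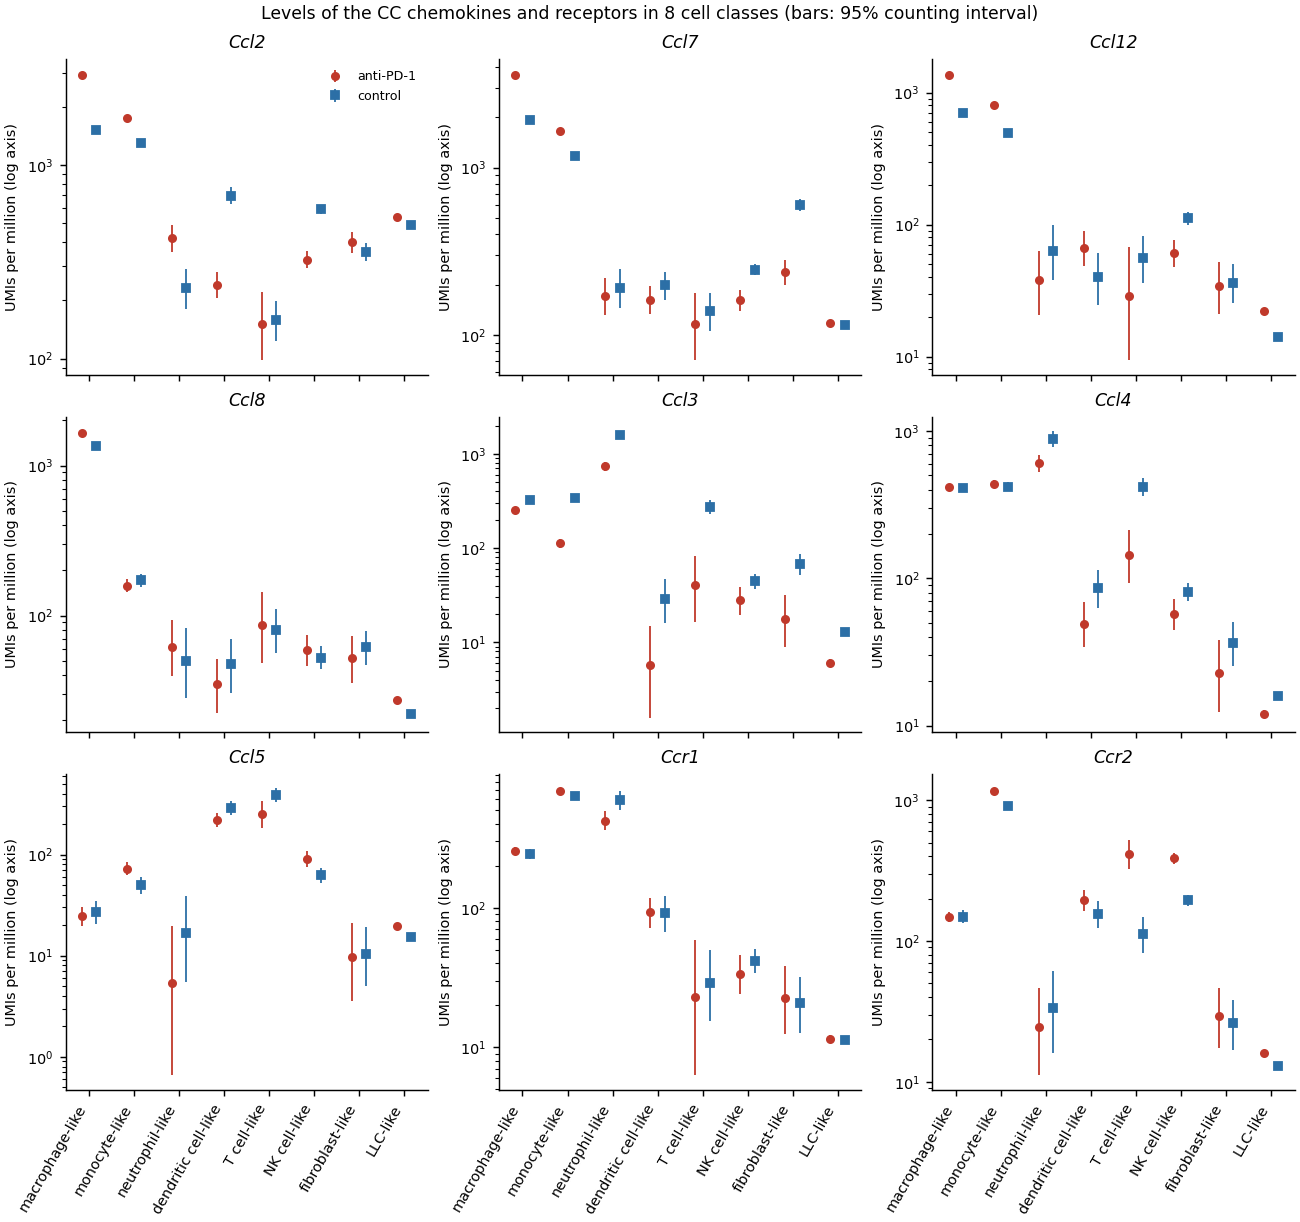
Levels of the 9 genes in 8 cell classes as CPM on a log axis, with red circles for the anti-PD-1 library, blue squares for control and bars for the 95% counting interval. Ccl2, Ccl7, Ccl12 and Ccl8 are highest in macrophage-like cells, Ccl3 and Ccl4 in neutrophil-like cells, Ccl5 in T cell-like cells, and Ccr1 and Ccr2 in monocyte-like cells, in both libraries. Intervals of the highest class and the next overlap for Ccl5 in both libraries and for Ccr1 in control.

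Ccl2, Ccl7 and Ccl12 were each nearly 2-fold higher in anti-PD-1 macrophage-like cells, and Ccl8 differed less. Counts behind the levels were 10141 Ccl2 UMIs in anti-PD-1 and 3562 in control. The log2 ratio of anti-PD-1 over control was 0.94 (0.88 to 0.99) for Ccl2, a 1.91-fold difference. For Ccl7 it was 0.91 (0.86 to 0.96), or 1.88-fold, and for Ccl12 0.95 (0.87 to 1.03), or 1.94-fold. Ccl8, the next gene along from Ccl12, had a log2 ratio of 0.29 (0.23 to 0.36). The Ccl2 to Ccl12 ratio of UMIs was therefore near equal in the libraries, at 2.15 (2.07 to 2.22) in anti-PD-1 and 2.17 (2.05 to 2.30) in control, whereas the Ccl2 to Ccl8 ratio was 1.76 (1.70 to 1.82) in anti-PD-1 and 1.13 (1.07 to 1.18) in control. None of the 9 genes was 2-fold apart in these cells, where 2.87% of 8143 genes were. The median gene had a log2 ratio of -0.13, and 7 of the 9 lay above it. The macrophage markers themselves summed to 37961 CPM in these cells of anti-PD-1 and 28680 CPM in those of control. Whether this has a part in the ratios of the members was not tested. Across 8 other ways of filtering, clustering, weighting and naming the cells, the log2 ratio ran between 0.66 and 1.0 for Ccl2, 0.76 and 0.98 for Ccl7, and 0.85 and 1.04 for Ccl12. That of Ccl8 ran between -0.02 and 0.52, so its direction was not kept.

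More macrophage-like cells carried these chemokines in anti-PD-1, and the typical cell carried more. Each cell was thinned to 1000 UMIs to put the libraries at 1 depth, which left 585 cells of anti-PD-1 and 424 of control. Ccl7 then had a UMI in 82.4% (79.1 to 85.4) of the cells of anti-PD-1 and in 57.3% (52.4 to 62.1) of those of control. For Ccl2 the shares were 74.4% (70.6 to 77.9) in anti-PD-1 and 50.9% (46.1 to 55.8) in control, and for Ccl12 49.7% (45.6 to 53.9) in anti-PD-1 and 31.4% (27.0 to 36.0) in control. Without thinning the shares were 91.3% in anti-PD-1 and 77.1% in control for Ccl7, 88.1% and 73.5% for Ccl2, and 72.2% and 54.3% for Ccl12. Ccl8 was found in 45.5% of thinned cells of anti-PD-1 and 43.9% of those of control, with overlapping intervals. In LLC-like cells, taken as background for Ccl12 and Ccl8, thinned shares were 2.1% and 2.7% in anti-PD-1 and 1.5% and 2.6% in control. In NK cell-like cells they were 4.5% and 5.1% in anti-PD-1 and 4.7% and 7.0% in control. The median macrophage-like cell with at least 1000 UMIs had 2153 CPM of Ccl2 in anti-PD-1 and 673 CPM in control, a wider gap than that of the summed UMIs. In control, 52.7% of the Ccl2 UMIs of these cells came from the tenth of cells with the most, against 42.7% in anti-PD-1.

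**Figure D2:**
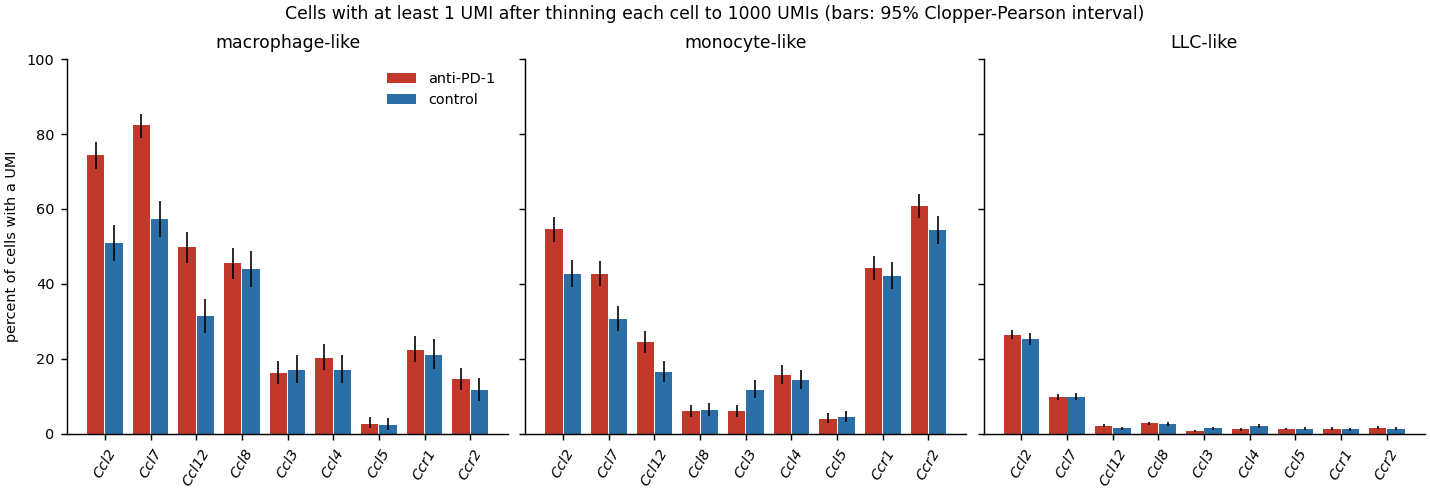
Percent of macrophage-like, monocyte-like and LLC-like cells with at least 1 UMI of each gene after thinning every cell to 1000 UMIs, with red bars for anti-PD-1, blue bars for control and 95% Clopper-Pearson intervals. In macrophage-like cells Ccl7 is at 82.4% in anti-PD-1 and 57.3% in control, while the Ccl8 bars of 45.5% and 43.9% overlap within their intervals.

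In monocyte-like cells Ccl2, Ccl7 and Ccl12 were again higher in anti-PD-1, with smaller ratios. Ccl12 had a log2 ratio of 0.71 (0.60 to 0.81), Ccl7 of 0.50 (0.43 to 0.57) and Ccl2 of 0.43 (0.37 to 0.50). Ccl8 stood at 158 CPM in anti-PD-1 and 172 CPM in control, with a log2 ratio of -0.12 (-0.33 to 0.08). One of the 9 genes, Ccl3, was 2-fold apart in these cells, against 0.759% of 7378 genes, and 0.529% of genes were 2-fold lower. The range of the log2 ratio over 7 alternatives was 0.54 to 0.81 for Ccl12, 0.32 to 0.81 for Ccl7 and 0.35 to 0.66 for Ccl2.

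**Figure D3:**
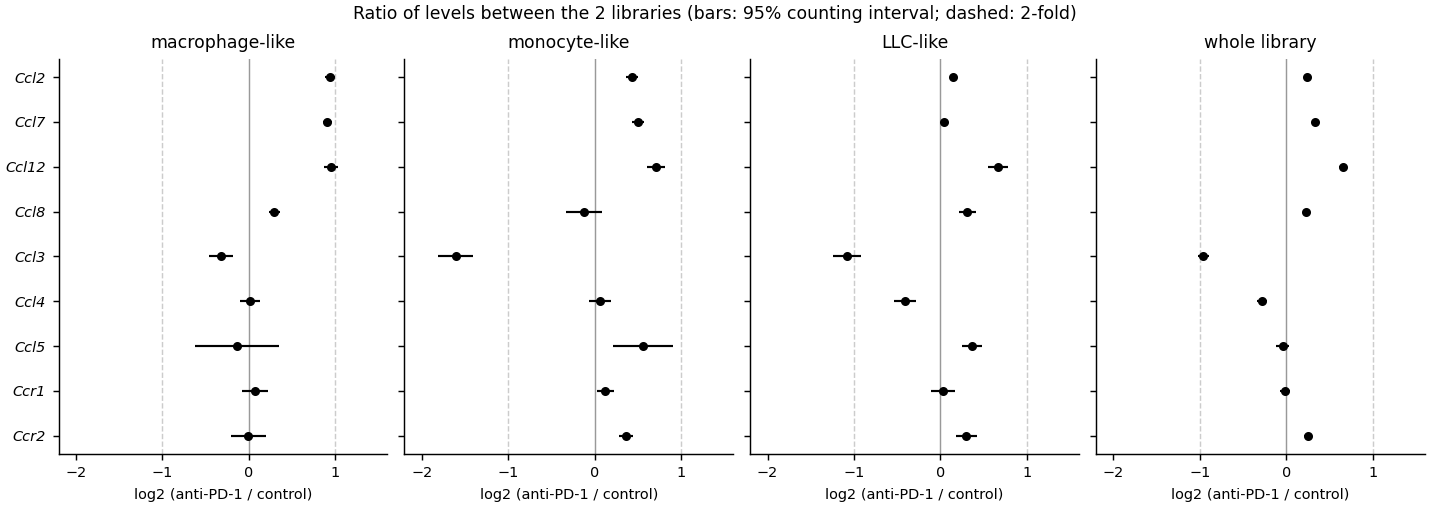
Log2 ratio of the anti-PD-1 level over the control level for the 9 genes in macrophage-like cells, monocyte-like cells, LLC-like cells and the whole library, with 95% counting intervals and dashed lines at 2-fold. Ccl2, Ccl7 and Ccl12 sit between 0.91 and 0.95 in macrophage-like cells, and Ccl3 at -1.61 in monocyte-like cells.

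Finer clustering, made without any chemokine or chemokine receptor gene, showed that monocyte-like cells were not uniform for these ligands. A group of 102 cells of anti-PD-1 and 114 of control led by Hp, Ace and Chil3 had 189 CPM of Ccl2 in anti-PD-1 and 228 CPM in control, and 31.6 and 21.1 CPM of Ccl12. A group led by Thbs1 and Il1b had 2010 CPM of Ccl2 in anti-PD-1 and 1558 CPM in control. A group led by Slfn4 and Rsad2, genes of the type I interferon response, had the highest monocyte-like level of Ccl12, at 1160 CPM in anti-PD-1 and 739 CPM in control. It held 349 cells of anti-PD-1 and 195 of control, while the group led by Thbs1 held 501 and 386. These groups come from a separate clustering at resolution 2 and were not cut from the monocyte-like class itself. The log2 ratio of Ccl12 was 0.30 (0.15 to 0.44) in the group led by Thbs1 and 0.65 (0.49 to 0.81) in the group led by Slfn4, both below the 0.71 of the whole class. For Ccl7 the ratios were 0.28 (0.19 to 0.37) and 0.63 (0.52 to 0.75), and for Ccl2 0.37 (0.28 to 0.45) and 0.25 (0.13 to 0.36). Ccr2 differed far less among these groups than Ccl2, at 956 to 1230 CPM in anti-PD-1 and 801 to 981 CPM in control. The unnamed cells led by Mmp12 and Hspa1a, 178 in anti-PD-1 and 328 in control at the coarser clustering, also had more Ccl2 in anti-PD-1, at 2242 CPM against 1247 CPM in control, a log2 ratio of 0.85 (0.72 to 0.97).

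**Figure D4:**
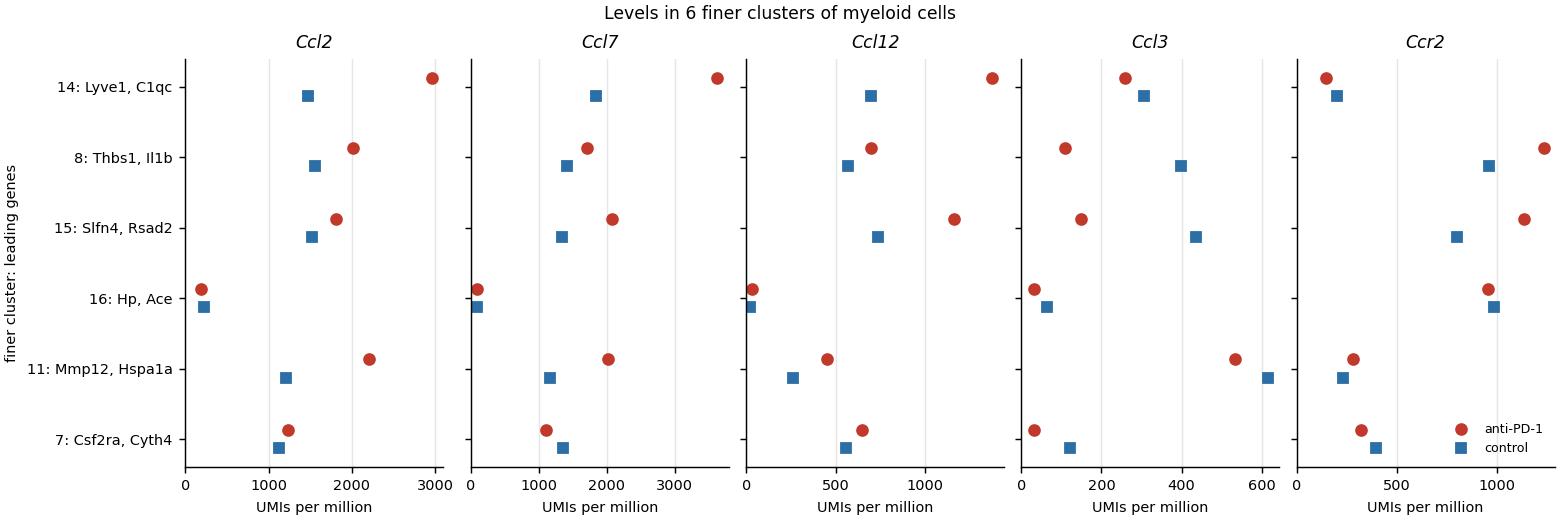
Levels of Ccl2, Ccl7, Ccl12, Ccl3 and Ccr2 in 6 finer clusters of myeloid cells, each named by its 2 leading genes, with red circles for anti-PD-1 and blue squares for control. The cluster led by Hp and Ace has little Ccl2 in either library (189 CPM in anti-PD-1, 228 CPM in control), while its Ccr2 is at 956 CPM in anti-PD-1 and 981 CPM in control.

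Ccl3 and Ccl4, ligands that activated myeloid cells and lymphocytes release together, were highest in neutrophil-like cells. Ccl3 had 736 CPM in neutrophil-like cells of anti-PD-1 and 1602 CPM in those of control, and Ccl4 606 and 886 CPM. Macrophage-like cells followed for Ccl3 in anti-PD-1 with 257 CPM, while in control monocyte-like cells with 343 CPM and macrophage-like cells with 321 CPM had overlapping intervals. For Ccl4, monocyte-like and macrophage-like cells did not differ beyond counting error, at 438 and 415 CPM in anti-PD-1 and 419 and 411 CPM in control.

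Ccl3 was lower in anti-PD-1 in each of the 8 classes compared, in 2 of them on under 100 UMIs. In monocyte-like cells it was 3.05-fold lower, and Ccl4 did not follow it there. In monocyte-like cells Ccl3 had 294 UMIs in anti-PD-1 and 756 in control, or 112 CPM in anti-PD-1 and 343 CPM in control, a log2 ratio of -1.61 (-1.81 to -1.41) that lay between -1.83 and -1.16 over 7 alternatives. Ccl4 in the same cells had a log2 ratio of 0.06 (-0.06 to 0.19). The ratio of Ccl3 to Ccl4 UMIs was 0.257 (0.225 to 0.292) in anti-PD-1 and 0.818 (0.742 to 0.902) in control. Thinned to 1000 UMIs, 6.0% (4.5 to 7.7) of monocyte-like cells of anti-PD-1 and 11.8% (9.5 to 14.3) of those of control had a Ccl3 UMI, and without thinning 11.01% in anti-PD-1 and 18.8% in control did. LLC-like cells, taken as background, had 0.7% in anti-PD-1 and 1.4% in control, and dendritic cell-like cells 0% in both. NK cell-like cells had 1.5% in anti-PD-1 and 5.2% in control, and fibroblast-like cells 1.6% and 6.0%. The background thus depends on the class taken. Few cells carried most of the Ccl3: the tenth of monocyte-like cells richest in it held 94.8% of its UMIs in anti-PD-1 and 88.6% in control.

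Ccl4, flat over the monocyte-like class, had ratios on either side of 0 in the finer groups, which need not hold the same cells as the class. In the finer group led by Thbs1 and Il1b, Ccl4 was 170 CPM in anti-PD-1 and 391 CPM in control, a log2 ratio of -1.21 (-1.44 to -0.97). In the group led by Slfn4 and Rsad2 it was 867 CPM in anti-PD-1 and 700.4 CPM in control, with a log2 ratio of 0.31 (0.14 to 0.48). Ccl3 was lower in both, with log2 ratios of -1.89 (-2.17 to -1.61) and -1.56 (-1.86 to -1.27).

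In macrophage-like cells Ccl3 stood at 257 CPM in anti-PD-1 and 321 CPM in control, a log2 ratio of -0.32 (-0.47 to -0.18), and Ccl4 at 0.01 (-0.11 to 0.13). Their detection overlapped in cells. Of thinned macrophage-like cells 7.18% of anti-PD-1 and 8.02% of control had UMIs of both, against 3.3% and 2.9% if the genes were spread over cells independently. For Ccl2 and Ccl7 the shares with both were 66.0% in anti-PD-1 and 38.2% in control, against 61.3% and 29.2%.

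The Ccl3 difference in neutrophil-like cells rested on the cells that were counted. Over all of them the log2 ratio was -1.12 (-1.34 to -0.90), and 1 of 5 measured members was 2-fold apart, where 3.45% of genes were. The 32 neutrophil-like cells of anti-PD-1 and 36 of control with over 1 UMI of the LLC genes gave 166 and 772 CPM of Ccl3. The 144 and 185 cells with at most 1 such UMI gave 1891 CPM in anti-PD-1 and 2398 CPM in control, a log2 ratio of -0.34. Ccl4 had a log2 ratio of -0.55 over all cells and 1654 CPM in anti-PD-1 against 1454 CPM in control in the cells with at most 1 LLC UMI, so its direction depended on them. Ccr1 likewise stood at 422 CPM in anti-PD-1 and 589 CPM in control over all cells, and at 1048 and 917 CPM in the cells with at most 1 LLC UMI.

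Ccl5, a ligand made by activated T cells and other leukocytes, was a minor transcript of macrophage-like cells. It was highest in T cell-like cells, with 254 CPM in anti-PD-1 and 388 CPM in control, and next in dendritic cell-like cells, with 220 CPM in anti-PD-1 and 289 CPM in control, whose intervals overlapped those of the T cell-like cells. Within dendritic cell-like cells it lay in the cluster led by Cacnb3 and Ccr7, at 349 CPM in anti-PD-1 and 390 CPM in control, and not in the cluster led by Cd209a, at 25.5 and 66.7 CPM. Macrophage-like cells had 24.4 CPM in anti-PD-1 and 26.9 CPM in control, close to LLC-like cells with 19.8 and 15.4 CPM. Monocyte-like cells had 72.7 CPM in anti-PD-1 and 49.4 CPM in control, a log2 ratio of 0.56 (0.21 to 0.91). The highest class was thus myeloid for 8 of the 9 genes in both libraries, Ccl5 being the exception. It was myeloid for all 9 where the cells were named one by one from their own marker UMIs. Dendritic cell-like cells were counted as myeloid here, with macrophage-like, monocyte-like and neutrophil-like cells. The genes were chosen as CC chemokines of myeloid cells, and the share over all genes was not computed, so these counts only describe them.

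In T cell-like cells 3 of 4 measured members were 2-fold apart, where 8.5% of 1506 genes were, 3.52% of genes being higher and 4.98% lower in anti-PD-1. Ccl2, Ccl7, Ccl12, Ccl8 and Ccr1 had too few UMIs there to be measured. Their log2 ratios were -0.08, -0.26, -0.95, 0.11 and -0.33, each under 2-fold with an interval spanning both directions. Ccl3 and Ccl4 passed the limit for a measured gene on their control UMIs, so the count of 3 of 4 depends on that limit. Ccl3 had 7 UMIs in 117 cells of anti-PD-1 and 123 UMIs in 278 cells of control, or 40.4 and 274 CPM, a log2 ratio of -2.76 (-4.11 to -1.68). Ccl4 had 144 CPM in anti-PD-1 and 417 CPM in control, a log2 ratio of -1.53 (-2.19 to -0.92), and -0.79 without the cells over 3 times the median depth of their class, which is under 2-fold. Ccr2 was higher in anti-PD-1, with 416 CPM against 112 CPM in control, a log2 ratio of 1.90 (1.36 to 2.45), and 0.92 with cells named singly from their own markers. The other measured member, Ccl5, had a log2 ratio of -0.61 (-1.12 to -0.13), and -0.03 with cells named singly. Macrophage markers in T cell-like cells summed to 792 CPM in anti-PD-1 and 1169 CPM in control, which was 2.1% and 4.1% of their level in macrophage-like cells. Ccl2 in T cell-like cells was at 5.2% and 10.4% of its macrophage-like level, Ccl3 at 15.8% and 85.4%, and Ccr2 at 281% and 74.99%.

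Over all cells of each class, the receptors were highest in monocyte-like cells, though for Ccr1 this order depended on the cells counted. Ccr2, which monocytes need to leave the marrow, had 1169 CPM in monocyte-like cells of anti-PD-1 and 909 CPM in those of control, 7.90-fold and 6.11-fold above macrophage-like cells. T cell-like and NK cell-like cells of anti-PD-1 came next with 416 and 389 CPM and overlapping intervals, while in control NK cell-like cells had 194 CPM. Dendritic cell-like cells led by Cd209a had 452 CPM in anti-PD-1 and 431 CPM in control. Ccr1, a receptor for Ccl3, Ccl5 and Ccl7 on monocytes and neutrophils, had in anti-PD-1 684 CPM in monocyte-like, 422 CPM in neutrophil-like and 255 CPM in macrophage-like cells. In control these were 628, 589 and 244 CPM, and the intervals of monocyte-like and neutrophil-like cells overlapped. Among cells with at most 1 LLC UMI the order for Ccr1 was the other way. Neutrophil-like cells then had 1048 CPM (874 to 1246) in anti-PD-1 and 917 CPM (772 to 1082) in control. Monocyte-like cells had 692 CPM (657 to 729) and 660 CPM (622 to 701).

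Differences in receptor levels between the libraries were small in the myeloid classes. In macrophage-like cells the log2 ratio was -0.01 (-0.21 to 0.19) for Ccr2 and 0.07 (-0.08 to 0.22) for Ccr1. In monocyte-like cells it was 0.36 (0.28 to 0.45) for Ccr2 and 0.12 (0.02 to 0.23) for Ccr1. Of thinned monocyte-like cells, 60.7% (57.5 to 63.9) in anti-PD-1 and 54.4% (50.7 to 58.0) in control had a Ccr2 UMI, and 78.4% and 73.5% without thinning. Ccr1 and Ccr2 were found in the same thinned monocyte-like cell in 28.8% of cells of anti-PD-1 and 26.0% of those of control, against 26.8% and 22.9% if independent. In NK cell-like cells 0 of 9 members were 2-fold apart, where 2.16% of genes were and 1.11% were 2-fold lower. Ccr2 came nearest, at 389 CPM in anti-PD-1 and 194 CPM in control, a 1.999-fold difference, but the log2 ratio was 0.34 without cells holding LLC marker UMIs, and -0.39 with cells named singly from their own markers. LLC markers in NK cell-like cells summed to 1017 CPM in anti-PD-1 and 838 CPM in control, against 1393 and 1268 CPM in LLC-like cells. Without the NK cell-like cells holding LLC marker UMIs, the log2 ratio of Ccl2 went from -0.86 to 0.50 and that of Ccl12 from -0.87 to 0.86. The cause of these shifts was not tested.

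Most Ccl2 UMIs of both libraries were in LLC-like cells, although their level was lower than in macrophage-like cells. LLC-like cells had 541 CPM of Ccl2 in anti-PD-1 and 491 CPM in control, a log2 ratio of 0.14 (0.12 to 0.16), and held 56.3% of the Ccl2 UMIs of the anti-PD-1 library and 50.6% of those of control. Macrophage-like cells held 12.7% and 5.4%. These shares depend on how many cells of each class were captured. Of the 8 classes, only macrophage-like and monocyte-like cells had more Ccl2 than LLC-like cells in anti-PD-1. Endothelial-like cells, too few to be among the 8, had 1326 CPM in 41 cells of anti-PD-1 and 347 CPM in 112 cells of control. Neutrophil-like cells of anti-PD-1 had 419 CPM and fibroblast-like cells 399 CPM. In control, dendritic cell-like cells with 695 CPM and NK cell-like cells with 590 CPM were also above LLC-like cells. T cell-like cells had the least, at 150 and 158 CPM. The Ccl2 level of LLC-like cells was 18.6% of that of macrophage-like cells in anti-PD-1 and 32.2% in control, while macrophage markers summed to 1.0% and 1.5% of their macrophage-like level, and Ccl12 stood at 1.6% and 2.0%. The ratio of Ccl2 to Ccl12 UMIs was 24.4 (23.3 to 25.6) in LLC-like cells of anti-PD-1 and 35.0 (32.9 to 37.4) in those of control, far from the values of macrophage-like cells. Ccl2 was also found in LLC-like cells that held at most 1 macrophage or monocyte marker UMI. It stood at 427 CPM (393 to 464) in 255 cells of anti-PD-1 and 294 CPM (239 to 358) in 60 cells of control. That was lower than in other LLC-like cells, with 543 CPM (538 to 548) in anti-PD-1 and 492 CPM (486 to 497) in control. Median depth of the marker-poor cells was 4607 UMIs in anti-PD-1 and 5292.5 in control, against 13738 and 16300.5 in other LLC-like cells. Ccl8 was at 26.6 against 27.2 CPM in anti-PD-1 and 29.7 against 21.9 CPM in control, with overlapping intervals. Ccl12 was lower in anti-PD-1, at 12.9 against 22.3 CPM, but not in control. The 60 control cells also had 240 CPM of Ccl5 and 133 of Ccl4, against 14.3 and 15.4 in the rest. The source of Ccl2 in these LLC-like cells was not tested. Of the thinned LLC-like cells 26.4% in anti-PD-1 and 25.3% in control had a Ccl2 UMI, and 85.04% and 84.7% without thinning.

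Among the LLC-like clusters, the one led by the hypoxia genes Adm and Ndrg1 with Nos2 had the most Ccl2. It stood at 1702 CPM in 302 cells of anti-PD-1 and 1254 CPM in 458 cells of control, a log2 ratio of 0.44 (0.40 to 0.48), and Ccl7 at 384 and 260 CPM. The cluster led by the interferon genes Cxcl10, Ifit3 and Ifit1 came second, with 1009 CPM in anti-PD-1 and 553 CPM in control, a log2 ratio of 0.87 (0.82 to 0.91). Other LLC-like clusters lay between 220 and 470 CPM in anti-PD-1 and between 107 and 471 CPM in control. The make-up of the class differed, since 1369 cells of anti-PD-1 but 111 of control belonged to a cluster led by Col8a1 and Dkk2 with 290 CPM and 286 CPM of Ccl2. With the 6 clusters of at least 50 cells in both libraries given equal weight, the log2 ratio of Ccl2 was 0.50, a weighting chosen after seeing the data. It was -0.03 with cells thinned to 3000 UMIs and -0.02 as a mean over cells, so the direction of the pooled 0.14 was not kept. Ccl7 in LLC-like cells was 118 CPM in anti-PD-1 and 114 CPM in control. One of the 9 genes was 2-fold apart in LLC-like cells, where 3.01% of genes were. That gene was Ccl3, at 6.02 CPM in anti-PD-1 and 12.7 CPM in control, which was 2.3% and 4.0% of its macrophage-like level, against 1.0% and 1.5% for the macrophage markers. Its log2 ratio of -1.08 was -0.63 with cells named singly from their own markers and -0.86 with the clusters weighted equally, which ends the 2-fold difference.

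**Figure D5:**
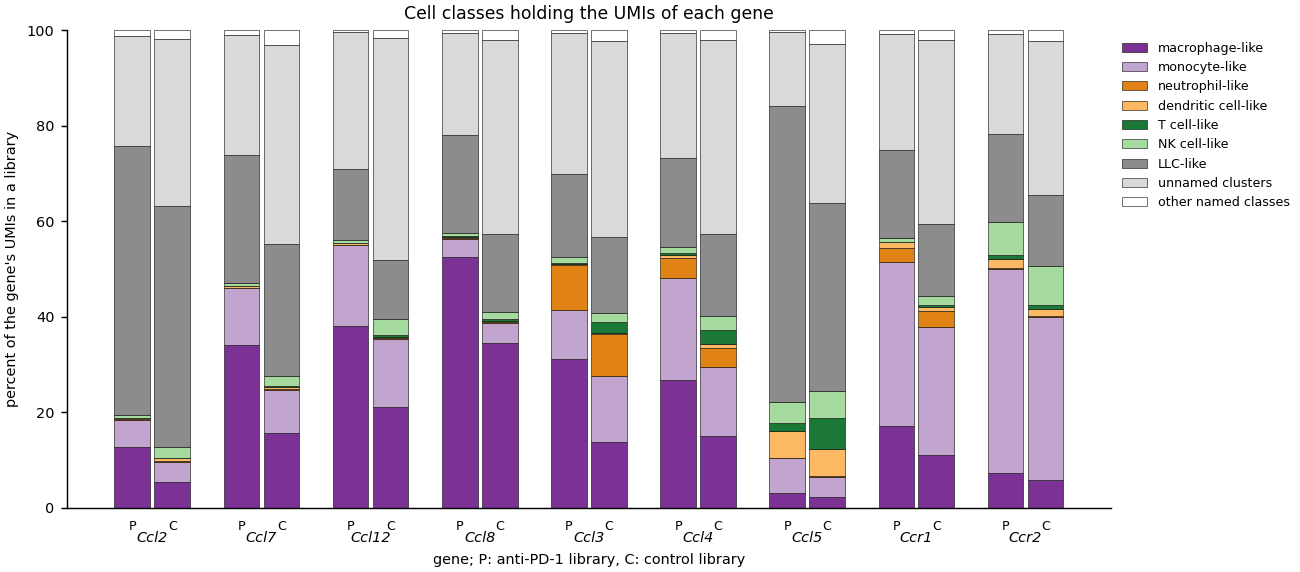
Percent of each gene's UMIs held by each cell class, with P for the anti-PD-1 library and C for control in each pair of bars. LLC-like cells hold 56.3% of Ccl2 UMIs in anti-PD-1 and 50.6% in control, and macrophage-like cells 52.6% and 34.5% of Ccl8 UMIs.

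Summed over the whole library, none of the 9 genes was 2-fold apart, where 5.45% of 12727 genes were and 4.88% were 2-fold lower. Ccl12 had the highest log2 ratio, at 0.65 (0.61 to 0.69), with 108 CPM in anti-PD-1 and 68.5 CPM in control. Ccl3 had the lowest, at -0.96 (-1.02 to -0.89), with 24.8 CPM in anti-PD-1 and 48.3 CPM in control. Ccl2 was at 692 CPM in anti-PD-1 and 586 CPM in control, Ccl7 at 317 and 252 CPM, Ccl8 at 95.1 and 81.0 CPM, Ccl4 at 46.6 and 56.6 CPM, and Ccr2 at 61.9 and 51.9 CPM. Ccr1, at 45.2 and 45.7 CPM, and Ccl5, at 23.0 and 23.6 CPM, differed by less than counting error. Thinning cells to 3000 UMIs gave log2 ratios of -0.03 for Ccl8, against 0.23 as summed, and -0.01 for Ccr2, against 0.25, and the mean over cells gave -0.12 for Ccl8, so these directions were not kept. These sums mix the level per cell with the number of cells of each class that were captured.

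A pair of smaller classes also held a member 2-fold apart. Ccl2 in dendritic cell-like cells, where 1 of 5 measured members and 1.96% of genes were 2-fold apart, had 241 CPM in anti-PD-1 and 695 CPM in control, a log2 ratio of -1.53. It was 1.10 without the cells over 3 times the median depth of their class, and between 1.19 and 1.47 under 3 other alternatives, so the direction turned. The other alternatives kept it lower in anti-PD-1. Ccl7 in fibroblast-like cells, where 1 of 2 measured members and 3.74% of genes were 2-fold apart (0.779% higher and 2.96% lower), had 237 CPM in 66 cells of anti-PD-1 and 595 CPM in 75 cells of control, a log2 ratio of -1.33 (-1.60 to -1.06), and -0.11 with cells named singly from their own markers. Endothelial-like cells were too few to compare, with 41 cells of anti-PD-1 and 112 of control.

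In macrophage-like cells the other measured CC chemokines were higher in anti-PD-1, as Ccl2 was, and most interferon gamma response genes were lower. Of 13 further CC chemokines, 3 were measured in macrophage-like cells and 0 were 2-fold apart, with a median log2 ratio of 0.76. Ccl9, a Ccr1 ligand, had 1787 CPM in anti-PD-1 and 999 CPM in control, a log2 ratio of 0.84 (0.77 to 0.91). Ccl6, also a Ccr1 ligand, had 1641 and 970 CPM, a log2 ratio of 0.76 (0.69 to 0.83), and Ccl24, an attractant of eosinophils, 69.8 and 53.4 CPM, at 0.39 (0.07 to 0.71). In monocyte-like cells Ccl9 had a log2 ratio of 0.36 (0.29 to 0.42), Ccl6 of -0.21 (-0.30 to -0.12) and Ccl24 of -0.78 (-1.23 to -0.33). Ccl17 was the 1 of 4 measured there that was 2-fold higher, with 96 UMIs in anti-PD-1 and 6 in control, but 87 of the 96 lay in 1 cell.

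Of 12 further receptors of CC chemokines, 2 were measured in macrophage-like and in monocyte-like cells, and 0 of them were 2-fold apart in either class. Ccrl2, which binds chemerin without signalling, had 19.2 CPM in anti-PD-1 and 38.5 CPM in control in macrophage-like cells, and a log2 ratio of -0.25 (-0.58 to 0.08) in monocyte-like cells. It was the 1 further receptor measured in neutrophil-like cells, with 64.9 CPM on 24 UMIs in anti-PD-1 and 264 CPM on 79 UMIs in control, a log2 ratio of -2.02 (-2.75 to -1.35).

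Of 11 measured interferon gamma response genes, 10 were at least 2-fold lower in anti-PD-1 macrophage-like cells, with a median log2 ratio of -1.73, and 4 of 11 in monocyte-like cells, with a median of -0.79. Over all genes, 2.11% were 2-fold lower in macrophage-like and 0.529% in monocyte-like cells. Cxcl9, a T cell attractant, had 51.7 CPM in anti-PD-1 macrophage-like cells and 403 CPM in those of control, a log2 ratio of -2.96 (-3.20 to -2.73). Type I interferon response genes had a median log2 ratio of 0.35 in macrophage-like cells, with 1 of 10 2-fold lower, and of 0.65 in monocyte-like cells, with 2 of 11, Ifit3 and Ifit1, 2-fold higher. Ifit3 there had 437 CPM in anti-PD-1 and 187 CPM in control, a log2 ratio of 1.23 (1.06 to 1.39). NF-kB response genes, a program that drives many chemokine genes, had a median log2 ratio of -0.27 in macrophage-like cells, with 2 of 17 lower by 2-fold or more. These were Ptgs2, the inducible prostaglandin synthase, at -2.07 (-2.41 to -1.73), and the cytokine gene Il1b, at -1.05 (-1.22 to -0.88). In monocyte-like cells 1 of 17 was, again Ptgs2, at -1.47 (-1.59 to -1.35). Over all genes the median log2 ratio was -0.13 in macrophage-like and -0.02 in monocyte-like cells.

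For each member, the genes with the most similar levels were found over 16 sums (8 classes in each of 2 libraries). As a description over 11588 genes, with sums that share libraries and classes, Ccl12 was most like Lyz2 (Pearson r = 0.987), Lyz1 and C3ar1, and Ccl8 most like Selenop (0.984), C1qa and C1qc. Ccl7 was most like Pf4 (0.956), Ch25h and Ms4a7, and Ccl2 most like Lpl (0.94), Myo5a and Dusp3. Among the genes reported, Ccl4 was nearest to Entpd1 (0.988) and Nherf1, Ccl3 to Litaf (0.910) and Ppp1r3b, and Ccl5 to Traf1 (0.976), Atp6v0a2 and Fnbp1. For the receptors these genes were Cd14 (0.982) and Slc15a3 with Ccr1, and Ms4a4c (0.920), Ifi209 and Dok2 with Ccr2.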

How the data were processed

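The deposited counts are whole-number UMI counts per gene and cell barcode, made by the authors with Cell Ranger (7.0.1 per the submitters' processing notes, 9.0.1 per the file headers) on mm10. The labels name a GEM-X Flex v2 and a 3' V3.1 protocol. Barcodes under 300 genes or over 20% mitochondrial UMIs were dropped. The rest were clustered together (scanpy 1.11.5, Python 3.11.15, numpy 2.4.6, 2000 variable genes, 40 components, 15 neighbours, Leiden resolution 1) after 57 chemokine and chemokine receptor genes were left out. A cluster was named where a marker list had a mean log2 fold of at least 2, at least 3 detected markers and a lead of 0.25 over the next list, with list genes among its 10 leading genes and a median below 500 CPM of Hmga2, Igf2bp1, Igf2bp2 and Wnt7b. Clusters at or above 500 CPM that fit no other list were named LLC-like. These limits were set after seeing the clusters. No doublet caller was run. Clusters that met no naming rule stayed unnamed, but named classes could still hold mixed cells. LLC markers summed to 1017 CPM in NK cell-like cells of anti-PD-1, for example, against 1393 CPM in LLC-like cells.

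UMIs were summed by class and library. Intervals are exact Poisson for levels and exact Clopper-Pearson for shares and, given the summed UMIs, for ratios (scipy 1.17.1), at 95%. With 1 library a group there was no test. A gene was measured in a class with at least 100 UMIs over both libraries, and a 2-fold difference was counted. A count of 0 was set to a floor of 3 counts. Ratios and their intervals were checked on simulated whole-library counts drawn with counting error alone. That check held no cell classes, mixed cells, depth differences or spread between animals, so it does not bear on those. Figures were drawn with matplotlib 3.10.9. All 9 members are reported, together with up to 4 genes of each pathway list among those with the widest log2 ratios, and the 3 genes most alike to each member by Pearson correlation, except for a few genes that are not reported here. The members and lists were chosen with earlier results of these data known. Positions come from GENCODE M21.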

Additional observations from a re-analysis of the deposited data

How the results depend on the processing

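Over the alternatives, which changed the filters, depth, naming, clustering or weighting of cells, 412 single log2 ratios were recomputed: 225 stayed within the counting interval, 183 lay outside it and 4 reversed a 2-fold difference. In 30 cases the sign changed although the interval had left out 0. The cause was not tested. The count of 2-fold members in the whole library, 0 of 9, was 1 with cells thinned to 3000 UMIs, without cells over 3 times the median depth of their class, and with CPM averaged over cells. In macrophage-like cells, 0 of 9 became 1 with all deposited barcodes and with resolution 2. In monocyte-like cells 1 of 9 stayed 1. In the 6 named classes other than macrophage-like and monocyte-like cells, 7 of 34 became 3 of 18 with cells thinned to 3000 UMIs, 4 of 34 with cells named singly from their own markers and 3 of 21 at resolution 0.5, which gave no monocyte-like class. Ccl2 in dendritic cell-like cells, at -1.53, reversed to 1.42 with all barcodes, 1.10 without deep cells, 1.47 at resolution 0.5 and 1.19 without cells holding LLC marker UMIs. The last alternative, the thinning to 1000 UMIs and the equal weighting of LLC-like clusters were added after seeing the data. Depth limits the neutrophil-like values: 120 of 176 cells of anti-PD-1 and 165 of 221 of control had under 1000 UMIs. No paired analysis was possible because each group has 1 library.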
